A study of Mus musculus with 6 samples.

Results

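Paneth cells are secretory cells at the base of the small intestinal crypts, and the genes described here are the alpha-defensin genes and other genes whose products are associated with these cells. The group took in every deposited gene whose symbol begins with Defa, which gave 16 genes, and 14 further genes from a fixed list: Lyz1, Ang4, Mptx1, Mptx2, Mmp7, Pnliprp2, Itln1, Clps, Habp2, Pla2g2f, Gm14851, Gm15284, Gm15299 and AY761184. It therefore held 30 of the 19616 genes counted. Among the genes counted, the lowest total over the 6 samples was 10 counts, so any gene with fewer is absent. RNA was sequenced from EDTA-enriched jejunal intestinal epithelial cells (IEC) of 3 control mice, named C1, C3 and C3-3, and 3 Hdac1/2-deleted mice, named H1, H5 and H9, with 1 library per mouse and all mice aged 3 months. The control mice were wild-type. The deleted mice were villin-Cre Hdac1-/-; Hdac2-/-, that is, floxed Hdac1 and Hdac2 were removed by a Cre recombinase whose villin promoter is active in the intestinal epithelium and not in the other cells of the gut wall. The study describes its mice as having a mixed C57BL/6J X 129SV X CD1 background.

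Total counts ranged from 58017009 to 65902344 in the control mice and from 36111035 to 65230566 in the deleted mice. Levels are given as CPM, the counts scaled to a library of 1000000, after correction of the library totals by the trimmed mean of M-values (TMM). The floor of the measurement was set at 3 counts and covers counting error only. By library totals, without the TMM correction, it was between 0.0455 and 0.0831 CPM depending on the library. The log2 fold changes compare deleted with control mice and carry an approximate standard error (SE). This SE was derived from the fold change and the F statistic of the test named next, and was not estimated separately. Each adjusted p is a Benjamini-Hochberg value from the quasi-likelihood test of edgeR over the 15618 genes that passed a filter on low counts. Genes are described as called when they differed at least 2-fold with an adjusted p no higher than 0.05. With 3 mice per group the smallest p of an exact permutation test is 0.1, so none is given for single values.

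Paneth cells store antimicrobial proteins in apical granules and release them into the crypt lumen, where they limit bacteria near the stem cells. Alpha-defensins, called cryptdins in the mouse, are small peptides held together by disulfide bonds between cysteines, and they damage microbial membranes. They are made as precursors, and in the mouse small intestine the metalloproteinase Mmp7 cuts them into active peptides. Paneth cells arise from secretory progenitors that need the transcription factor Atoh1, and Wnt signals at the crypt base together with Sox9 are needed for their maturation.

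The genotype labels were checked against the deleted genes. Hdac1 was counted at 39.1, 34.5 and 48.8 CPM in C1, C3 and C3-3 and at 3.97, 2.53 and 4.81 CPM in H1, H5 and H9. The deleted mice were all below the control mice, with a log2 fold change of -3.43 (SE 0.26, adjusted p = 2.9e-05). Hdac2 was counted at 32.8, 23.6 and 26.5 CPM in the control mice and at 26.6, 25.4 and 21.4 CPM in the deleted mice. These groups overlapped, and the log2 fold change was -0.18 (SE 0.17, adjusted p = 0.44), or 0.0069 with scaling by library totals only, so the deletion of Hdac2 could not be read from its total RNA count. Epithelial markers were high in every library: Krt8 stood at 2665, 2912 and 3034 CPM in the control mice and at 2653, 2902 and 3200.3 CPM in the deleted mice, with overlapping groups. Villin 1, Vil1, the gene whose promoter drives the Cre, stood at 3393, 4574 and 4684 CPM and at 2663, 2936 and 3540.4 CPM. Of 6 tested genes on the epithelial list, 0 were called lower and 1 higher, beside 12.7% and 12.4% of all tested genes. Without H5 or without C3, 0 were called higher. Lysozyme 1 and Defa24, both classical Paneth cell products, were among the abundant transcripts of control IEC, with values given with their groups.

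Most of the group's RNA was far less abundant in the deleted mice. Summed over the 30 genes, the level was 6599, 4457 and 4798 CPM in C1, C3 and C3-3 and 419, 444 and 295 CPM in H1, H5 and H9. The lowest control mouse lay well above the highest deleted mouse, and the ratio of the group means was 13.7. As a share of all counts the 30 genes made up 0.663, 0.397 and 0.440% in the control mice and 0.0476, 0.0468 and 0.0301% in the deleted mice. Mean levels were lower in the deleted mice for 29 of the 30 genes, Mptx1 being the exception; with scaling by library totals only, the log2 fold change of Pla2g2f, one of the 29, was 0.042. The filter kept 27 of the 30, and Defa23, Defa-ps18 and Defa-ps1 were too low to be tested. Of the 27 tested genes, 21 were called lower, where 12.7% of all tested genes were called lower, and 1 was called higher, where 12.4% of all tested genes were called higher. All 3 deleted mice lay below all 3 control mice for 21 of them, beside 26.6% of all tested genes, and above all 3 control mice for 1, beside 26.7% of all tested genes. The median log2 fold change was -4.12 over the 27 tested genes and -0.0081 over all tested genes. A filter that keeps genes through the group in which they are high favours differences, so these counts describe the group and are not a test of it. In these bulk libraries, fewer Paneth cells and less RNA per Paneth cell cannot be told apart.

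**Figure D1:**
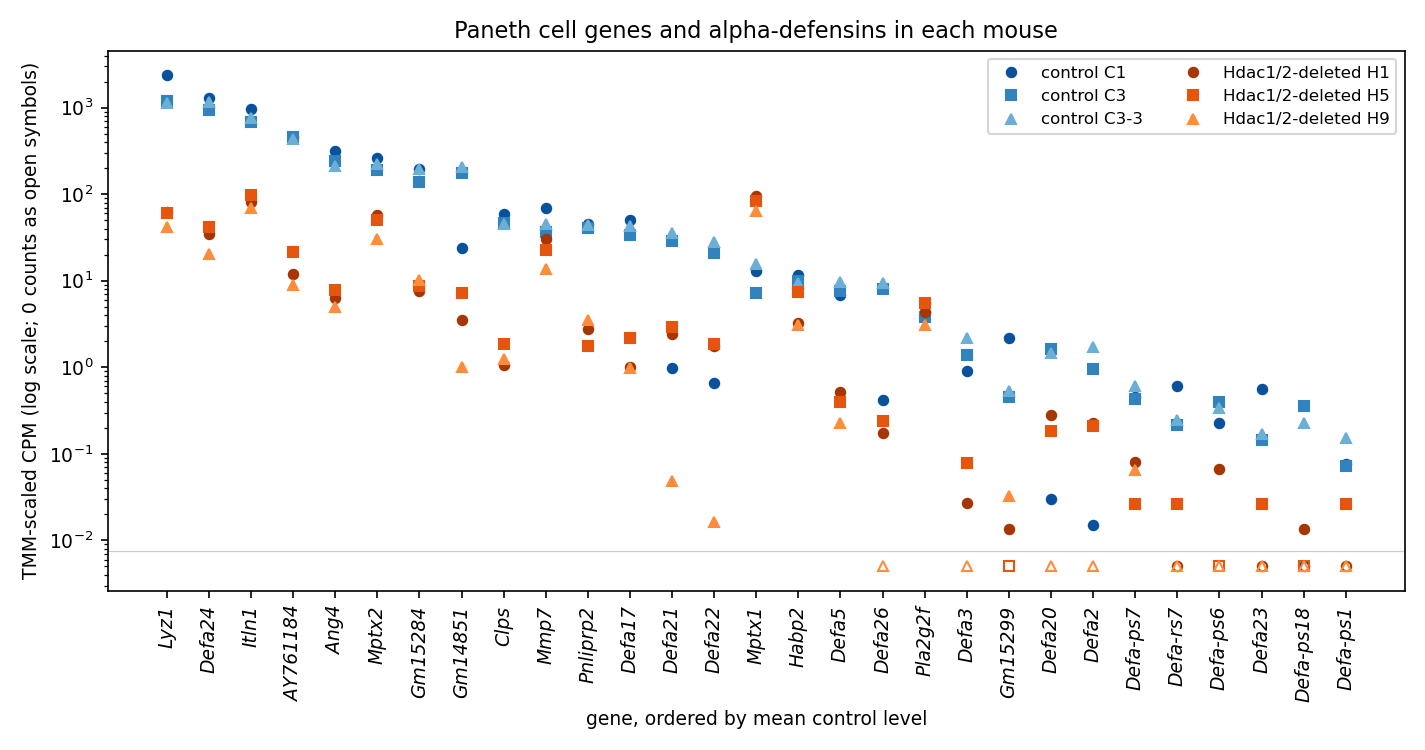
TMM-scaled CPM (log scale) of 29 of the 30 genes in each mouse, ordered by mean control level, with 0 counts drawn as open symbols under the line. Most genes show the 3 deleted mice (orange) well under the 3 control mice (blue); Mptx1 shows the reverse, and control mouse C1 falls to the level of the deleted mice for Defa21, Defa22, Defa20 and Defa2.

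The control RNA of the group was held by few genes. Lyz1, Defa24, Itln1 and AY761184 held 74.9% of the counts that the 30 genes received in the control mice. Per kilobase of exon, which allows levels of different genes to be compared, the control mean was highest for Defa24, at 2695 CPM per kb, followed by Lyz1 at 1235, AY761184 at 896 and Itln1 at 707 CPM per kb. Gm15284, Gm14851, Ang4 and Mptx2 were lower, with 441, 385, 359.6 and 281 CPM per kb. Neighbours in this order could differ by less than the spread between mice, since Lyz1 in C1 was 2.09 times its level in C3-3.

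Of the 30 genes, 20 lie in a single cluster on chromosome 8, between positions 21025545 and 21735471 of GRCm38, a span of 710 kb. GENCODE annotates 16 of them as protein-coding and 4 as pseudogenes, with 16 on the plus strand and 4 on the minus strand. The other 10 genes lie elsewhere. Summed over the cluster genes, the level was 2486, 2006 and 2312 CPM in the control mice and 75.2, 107 and 59.9 CPM in the deleted mice, a ratio of means of 28.1. Summed over the 10 genes elsewhere, it was 4112, 2451 and 2486 CPM in the control mice and 344, 337 and 235 CPM in the deleted mice, a ratio of means of 9.87. Both sums separated the groups without overlap. C1 had the highest sum in each case, by a wider margin outside the cluster than within it. Whether these ratios differ from each other was not tested. The sum elsewhere includes Mptx1, which was higher in the deleted mice, with means of 12.0 CPM in control and 80.8 CPM in deleted mice. Without Mptx1, the ratio of means over the rest of the whole group was 17.3, against 13.7 with it.

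**Figure D2:**
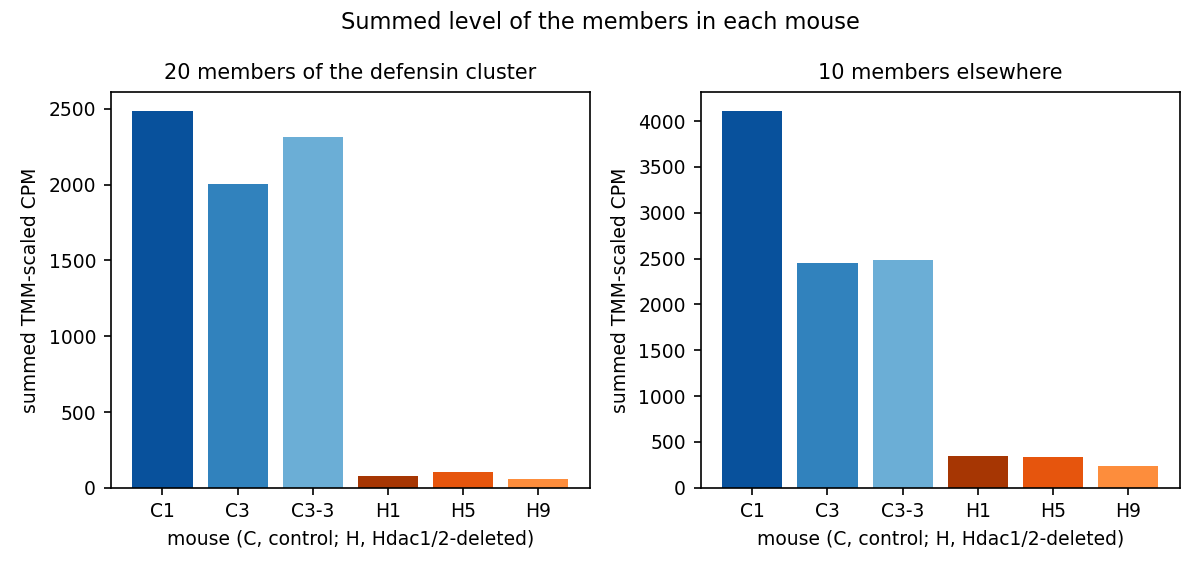
Summed TMM-scaled CPM of the 20 genes of the defensin cluster (left) and of the 10 genes elsewhere (right), 1 bar per mouse. In both sets each deleted mouse (H) lies far below each control mouse (C), with ratios of group means of 28.1 and 9.87.

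The cluster genes encode closely related proteins, which limits how well their reads can be assigned. The protein-coding transcripts of the Defa type encode precursors of 93 to 95 residues with 6 cysteines, apart from Gm15299, whose transcript encodes 66 residues. AY761184 and Gm14851 encode a longer form of 116 residues with 11 cysteines and are 93.97% identical. Among the shorter precursors, Defa17 and Defa3 encode the same protein, as do Defa23 and Defa-rs7, while Defa24 and Gm15284 are 97.8% identical. The share of 100-base transcript windows that also occur in another gene was 100% for Defa2 and Defa-rs7, 99.7% for Defa20, 90.6% for Defa17, 89.1% for Defa23, 88.1% for Defa5 and 86.8% for Defa3. It was 40.4% for Defa21 and 40.3% for Defa22, which share windows with each other, and 0% for Defa24 and AY761184. How reads that match several genes were counted is not stated in the sources used here, so the split of counts among the near-identical copies is uncertain, and how far the cluster sum depends on it was not tested.

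Upstream sequence is shown for the cluster genes that have promoter entries, because some of these copies also have the same sequence before the start. RefSeq promoter entries for GRCm38.p6 were found for 16 of the 30 genes, 7 of them in the cluster, and the 250 bases before the annotated start were searched on both strands for CTTTG or its reverse complement CAAAG, the core recognised by Tcf/Lef factors of the Wnt pathway, and for the longer form CTTTGAT or ATCAAAG, which contains the core. The 7 cluster promoters comprised 4 distinct sequences, all from the plus strand, printed 5′ to 3′ with the core in capitals.
Defa21 and Defa22 (chr8:21025295-21025544 for Defa21): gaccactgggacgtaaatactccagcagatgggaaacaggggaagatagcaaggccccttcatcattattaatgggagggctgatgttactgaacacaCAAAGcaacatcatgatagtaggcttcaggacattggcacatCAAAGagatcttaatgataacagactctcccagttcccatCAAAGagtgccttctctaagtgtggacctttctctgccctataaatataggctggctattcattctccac
Defa2 and Defa20 (chr8:21378267-21378516 for Defa2): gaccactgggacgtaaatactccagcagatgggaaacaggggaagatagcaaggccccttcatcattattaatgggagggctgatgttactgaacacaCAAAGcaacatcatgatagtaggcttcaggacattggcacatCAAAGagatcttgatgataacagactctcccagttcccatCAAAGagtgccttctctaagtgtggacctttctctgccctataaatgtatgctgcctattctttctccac
Defa23 and Defa-rs7 (chr8:21054790-21055039 for Defa23): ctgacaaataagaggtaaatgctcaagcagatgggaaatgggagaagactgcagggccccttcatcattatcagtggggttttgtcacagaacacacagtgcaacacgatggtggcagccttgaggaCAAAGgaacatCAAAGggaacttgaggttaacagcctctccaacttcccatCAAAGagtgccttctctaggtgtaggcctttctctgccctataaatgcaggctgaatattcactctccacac
Gm15284, named Defa30 by RefSeq (chr8:21134400-21134649): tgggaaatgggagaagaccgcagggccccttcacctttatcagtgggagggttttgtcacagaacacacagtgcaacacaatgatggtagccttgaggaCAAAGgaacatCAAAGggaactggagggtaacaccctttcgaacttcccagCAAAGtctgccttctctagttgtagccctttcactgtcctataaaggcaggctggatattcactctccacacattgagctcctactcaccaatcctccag
The Defa21 and Defa2 sequences differed at 5 of 250 bases; the other pairs were not aligned here. All 7 cluster promoters held both the core and the longer form, where 48.6% of all 32851 promoters held the core and 3.21% held the longer form. Because they are copies, the 7 are not independent observations, and a match of letters does not show that a factor binds. Outside the cluster the longer form was found in 1 further sequence, a second Mmp7 entry.

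Cryptdin RNA was also measured by qPCR in these cells, where the study reports decreased expression. The primers of that assay were compared with the annotated transcripts. Mismatches to annotated transcripts do not show which copies were amplified in these mice.
forward primer: cagccaggagaagaggaccag
reverse primer: tagcataccagatctctcaacgat
The forward primer matched no annotated transcript of the 20 cluster genes exactly, 4 of them with at most 1 mismatch and 14 with at most 2 mismatches. The reverse primer matched Defa-rs7, Defa17, Defa23, Defa3 and Gm15284 exactly. Both primers matched 7 of the 20 genes with at most 2 mismatches each. Defa24, the most abundant Defa gene, had 1 mismatch to each primer, and the 11-cysteine genes AY761184 and Gm14851 had 10 and 12 mismatches in that order to the reverse primer.

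Among the defensin precursors of 93 residues, the abundant genes Defa24, Gm15284 and Defa17 were called lower. Defa24 stood at 1284, 939 and 1165 CPM in C1, C3 and C3-3 and at 34.3, 42.1 and 20.6 CPM in H1, H5 and H9. The control mice were close to each other and all far above the deleted mice, with a log2 fold change of -5.13 (SE 0.30, adjusted p = 8.6e-06). Gm15284 stood at 193, 139 and 194 CPM in the control mice and at 7.54, 8.71 and 10.3 CPM in the deleted mice. Its groups were likewise far apart, with a log2 fold change of -4.31 (SE 0.20, adjusted p = 3.2e-06). Defa17 stood at 50.8, 33.8 and 42.7 CPM against 1.01, 2.16 and 0.975 CPM, and its log2 fold change was -4.98 (SE 0.35, adjusted p = 2.7e-05). Defa5, at 6.78, 7.70 and 9.67 CPM in control and 0.513, 0.395 and 0.228 CPM in deleted mice, changed by -4.40 (SE 0.36, adjusted p = 4.2e-05) on the log2 scale. Defa3, whose protein is that of Defa17, was counted at 0.906, 1.37 and 2.20 CPM and 0.0270, 0.0790 and 0 CPM, with a log2 fold change of -5.53 (SE 0.78, adjusted p = 0.00064), or -6.49 without H5 and -4.91 without H9. For each of these 5 genes all deleted mice lay below all control mice, and the call held with each mouse left out in turn.

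AY761184 and Gm14851, of 116 residues and 11 cysteines, were also called lower. AY761184 stood at 463, 456 and 432 CPM in the control mice and at 12.1, 21.6 and 9.04 CPM in the deleted mice. It had control values between 432 and 463 CPM, and its log2 fold change was -4.99 (SE 0.33, adjusted p = 2.4e-05). Gm14851 stood at 23.9, 175 and 207 CPM in the control mice and at 3.52, 7.18 and 1.01 CPM in the deleted mice. Here C1 was the low control mouse and H9 the low deleted mouse, the groups still did not overlap, and the log2 fold change was -5.14 (SE 1.20, adjusted p = 0.023). The call of Gm14851 was lost without H1 (log2 fold change -5.07, adjusted p = 0.077), without H9 (-4.66, 0.053) or without C3 (-4.90, 0.064) and held without H5 (-5.88), within a range of 8.5e-06 to 0.077 over all alternatives tried.

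In Defa21, Defa22 and Defa26, C1 was far below the other control mice. Defa21 stood at 0.981, 28.7 and 35.7 CPM in C1, C3 and C3-3 and at 2.43, 2.95 and 0.0488 CPM in H1, H5 and H9. Defa22 stood at 0.664, 20.9 and 27.9 CPM and 1.74, 1.87 and 0.0163 CPM in the same order. In both genes C1 fell below H1 and H5, so the groups overlapped. H9 held 3 counts of Defa21, which is the floor, and 1 count of Defa22, which is below it. Neither gene was called, with log2 fold changes of -3.61 (SE 1.69, adjusted p = 0.15) and -3.78 (SE 1.73, adjusted p = 0.15), or -3.02 and -3.18 without H9, and -3.15 for Defa22 without C3-3. Defa26 stood at 0.423, 8.06 and 9.42 CPM in the control mice and at 0.175, 0.237 and 0 CPM in the deleted mice. Its C1 value was again the low one but stayed above the deleted mice, and the log2 fold change was -5.49 (SE 1.45, adjusted p = 0.025). With 1 mouse left out, that call held without C1 and was lost without H1, H5, H9, C3 or C3-3, with log2 fold changes of -5.86, -5.97, -4.87, -5.20 and -4.98 and adjusted p-values of 0.086, 0.065, 0.063, 0.067 and 0.055, within a range of 0.00014 to 0.086 over all alternatives.

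Defa20 and Defa2, whose transcripts can hardly be told apart, also had C1 and H9 as the low mice of their groups. Defa20 stood at 0.0302, 1.64 and 1.47 CPM in the control mice and at 0.283, 0.184 and 0 CPM in the deleted mice, and Defa2 at 0.0151, 0.954 and 1.73 CPM and 0.229, 0.211 and 0 CPM. The groups overlapped for both genes. Their log2 fold changes were -2.71 (SE 1.39, adjusted p = 0.17) and -2.61 (SE 1.44, adjusted p = 0.19), and neither was called. Without C1 both were called lower, with adjusted p-values of 0.024 for Defa20 and 0.028 for Defa2. The ranges over all alternatives were 0.0059 to 0.35 and 0.0099 to 0.44. Both lower ends came from the fit without C1 and H9, which was chosen after the values were seen. The log2 fold changes were -3.67 and -3.24 without H1 and -2.11 and -2.00 without H9, in the same order, and -1.70 for Defa2 without C3-3. In C1, the level relative to the mean of C3 and C3-3 was 0.0112 for Defa2, 0.0194 for Defa20, 0.0272 for Defa22, 0.0304 for Defa21 and 0.0483 for Defa26. The same ratio was 1.22 for Defa24 and 1.04 for AY761184, and it was above 1 for Gm15299, Defa23 and Defa-rs7, at 4.45, 3.56 and 2.62. When C1 and H9 were both left out, a choice made after the values were seen, 24 of 28 tested genes of the group were called lower, where 12.6% of all tested genes were, among them Defa2, Defa20, Defa21 and Defa22, while Habp2 and Mmp7 were not.

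**Figure D3:**
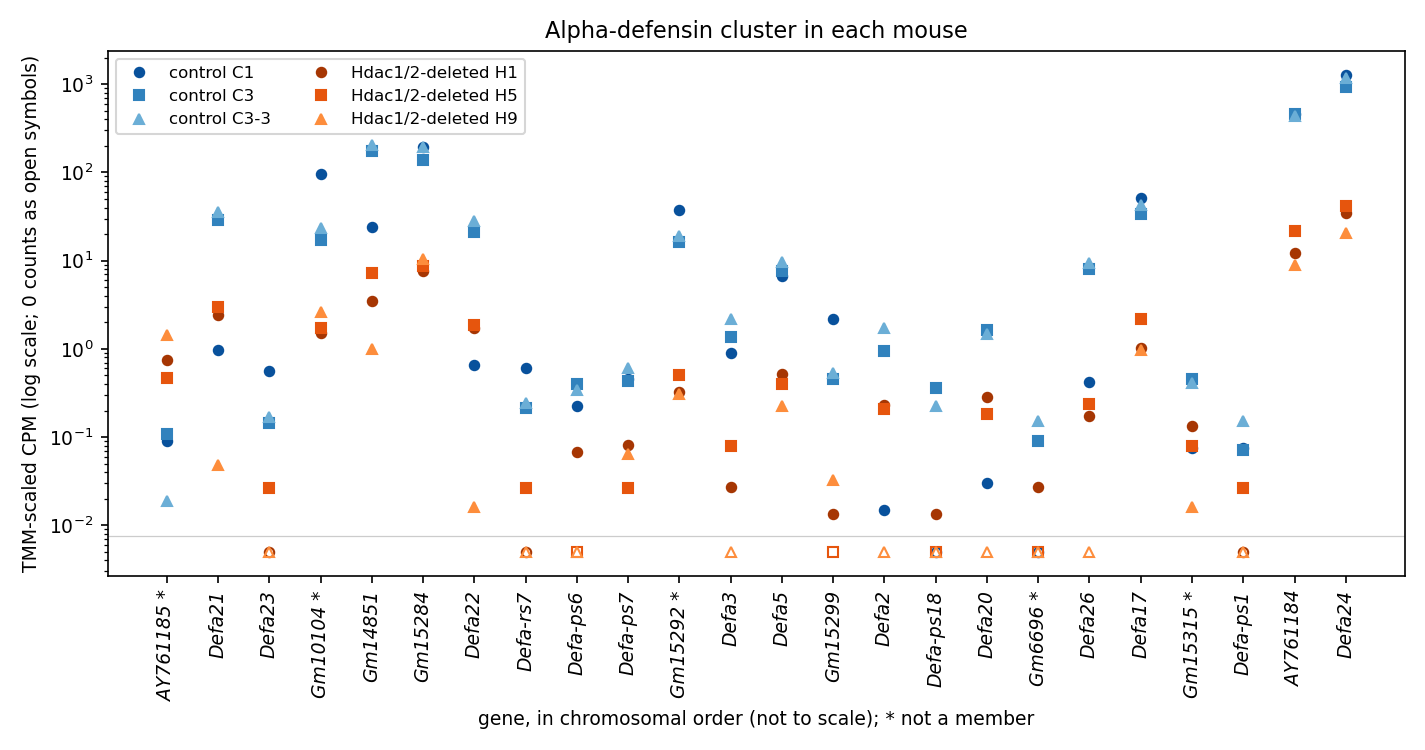
TMM-scaled CPM (log scale) of 19 of the 20 cluster genes in chromosomal order in each mouse, with 0 counts drawn as open symbols and an asterisk at the 5 counted genes outside the group. C1 (dark blue circles) lies well below the other control mice at Defa21, Gm14851, Defa22, Defa2, Defa20 and Defa26 and has 0 counts at Defa-ps18. Among the genes where C1 lies above both other control mice are Gm15299, Defa23, Defa-rs7, Gm10104 and Gm15292.

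The remaining cluster genes were counted at low levels. Gm15299, named Defa27 by GENCODE, received 197 counts in the control mice and 3 in the deleted mice, a ratio of 57.0 (95% interval 19.2 to 279), the ratio being scaled by library totals. This interval and those below are exact binomial over pooled counts and cover counting error only, not the spread between mice. C1 held 144 of the 197 counts, and without C1 the ratio was 23.7. Defa-rs7 received 65 counts in the control mice and 1 in the deleted mice, a ratio of 56.5 (95% interval 9.78 to 2264), with 40 of the 65 in C1 and a ratio of 33.6 without it. Both were called lower, with log2 fold changes of -5.78 and -5.47 and adjusted p-values of 0.0016 and 0.0024, and C1 held the highest value of each. The log2 fold change of Gm15299 was -4.67 without C1 and -6.60 without H9, and that of Defa-rs7 was -4.82 without C1 or without H1 and -7.48 without H5; these calls held. Defa23, whose transcript is almost that of Defa-rs7, received 54 counts in the control mice and 1 in the deleted mice, a ratio of 46.9 (95% interval 8.07 to 1886), with 37 of the 54 in C1 and a ratio of 22.9 without it. The pseudogenes were at the same low level. Defa-ps7 stood at 0.453, 0.432 and 0.602 CPM in the control mice and at 0.0810, 0.0263 and 0.0650 CPM in the deleted mice, with a log2 fold change of -2.97 (SE 0.51, adjusted p = 0.0018). Defa-ps6 stood at 0.226, 0.396 and 0.339 CPM and 0.0675, 0 and 0 CPM, with -3.45 (SE 0.87, adjusted p = 0.012), or -7.14 without H1, which held all counts of the deleted mice. Both were called lower and did not overlap between groups. Defa-ps18 received 32 counts in the control mice and 1 in the deleted mice, a ratio of 27.8 (95% interval 4.64 to 1132), with 0 counts in C1 and a ratio of 43.0 without it. Defa-ps1 received 17 counts in the control mice and 1 in the deleted mice, a ratio of 14.8 (95% interval 2.31 to 617).

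The annotation places 5 further counted genes, not included by the rule, in the cluster span or within 100000 bases of it. They are given as chosen after their values were seen. AY761185 lies outside the span, between positions 20943694 and 20944710. Gm10104, named Defa35 by GENCODE, stood at 95.6, 17.0 and 23.7 CPM in the control mice and at 1.52, 1.71 and 2.63 CPM in the deleted mice. Gm15292 stood at 37.8, 16.2 and 19.0 CPM and 0.324, 0.500 and 0.309 CPM. Both were highest in C1 and were called lower, with log2 fold changes of -4.53 (SE 0.81, adjusted p = 0.0066) and -6.04 (SE 0.42, adjusted p = 2.5e-05), and with -3.37 for Gm10104 without C1. AY761185 went the other way, with 0.0906, 0.108 and 0.0188 CPM in the control mice and 0.742, 0.474 and 1.43 CPM in the deleted mice, a log2 fold change of 3.56 (SE 0.66, adjusted p = 0.0026). It rested on 13 counts in the control mice and 161 in the deleted mice. Gm15315 received 52 counts in the control mice and 14 in the deleted mice, Gm6696 received 13 and 2, and neither was tested.

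Mmp7, the protease that activates mouse alpha-defensin precursors, had a smaller fold change than the abundant defensins. It stood at 69.0, 36.1 and 45.1 CPM in the control mice and at 30.6, 22.8 and 13.8 CPM in the deleted mice. The groups did not overlap, and C1 was the highest control mouse and H9 the lowest deleted mouse. Mmp7 was called lower with a log2 fold change of -1.16 (SE 0.33, adjusted p = 0.025). The call was lost without C1 (log2 fold change -0.85, adjusted p = 0.063), without H5 (-1.17, 0.083) and without H9, where the fold limit was missed (-0.90, 0.048), and with scaling by library totals only (-0.97, 0.076). Over all alternatives its adjusted p ranged from 0.0014 to 0.083. Whether its change differs from those of the defensins was not tested.

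The granule antimicrobials Lyz1 and Ang4 were also called lower. Lyz1, the Paneth cell lysozyme that cleaves bacterial peptidoglycan, stood at 2362, 1190.2 and 1128 CPM in the control mice and at 62.7, 59.9 and 42.0 CPM in the deleted mice. C1 was the highest, and every control mouse exceeded every deleted mouse. The log2 fold change was -4.83 (SE 0.36, adjusted p = 3.2e-05), a 28.4-fold lower level. Lyz2, the lysozyme of macrophages, shares 2.06% of the 100-base windows of Lyz1 and stood at 3.67, 3.71 and 3.46 CPM in the control mice and at 4.66, 2.97 and 6.92 CPM in the deleted mice, with overlapping groups and a log2 fold change of 0.43 (SE 0.32, adjusted p = 0.31). Ang4, a ribonuclease of the angiogenin family with activity against gut bacteria, stood at 313, 239 and 213 CPM in the control mice and at 6.25, 7.90 and 4.91 CPM in the deleted mice. Its groups were far apart, with a log2 fold change of -5.33 (SE 0.25, adjusted p = 3.2e-06), a 40.3-fold lower level.

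Of the secreted lectin and the mucosal pentraxins, Itln1 and Mptx2 were lower and Mptx1 was higher. Itln1, intelectin 1, which binds microbial glycans and is made by goblet as well as Paneth cells, stood at 976, 687 and 758 CPM in the control mice and at 81.2, 96.8 and 69.1 CPM in the deleted mice. No mice overlapped, and the log2 fold change was -3.29 (SE 0.21, adjusted p = 1.1e-05). Mptx2 stood at 259, 189 and 223 CPM in the control mice and at 58.0, 49.9 and 30.1 CPM in the deleted mice, again without overlap, with a log2 fold change of -2.28 (SE 0.25, adjusted p = 0.0002). Mptx1, which also lies on chromosome 1, stood at 13.1, 7.20 and 15.8 CPM in the control mice and at 94.0, 83.8 and 64.6 CPM in the deleted mice. Every deleted mouse exceeded every control mouse, and the log2 fold change was 2.75 (SE 0.29, adjusted p = 0.00021), a 6.73-fold higher level. The calls of these 3 genes held with each mouse left out in turn. Their transcripts are distinct enough for most reads to be assigned, since Mptx1 and Mptx2 share 3.29% and 3.31% of their windows.

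The lipid-digesting and remaining secreted products were mixed. Clps, colipase, the cofactor of pancreatic lipase, stood at 58.7, 46.9 and 45.3 CPM in the control mice and at 1.07, 1.84 and 1.24 CPM in the deleted mice. The log2 fold change was -5.21 (SE 0.25, adjusted p = 3.4e-06). Pnliprp2, a lipase related to pancreatic lipase, stood at 44.9, 40.9 and 44.4 CPM in the control mice and at 2.79, 1.76 and 3.51 CPM in the deleted mice. All deleted mice lay below all control mice for both genes, and the log2 fold change of Pnliprp2 was -3.999 (SE 0.25, adjusted p = 1.1e-05). Markers of pancreatic acinar cells, which also make both proteins, were low: over 12 of 14 listed genes that were counted, the summed level was 2.55, 6.12 and 3.72 CPM in the control mice and 17.4, 9.37 and 8.91 CPM in the deleted mice. Of the 6 tested, 0 were called lower and 2 higher by the edgeR test, beside 12.7% and 12.4% of all tested genes, with 1 higher when every sample had to hold 10 counts, the most abundant being Sycn.

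Habp2, a secreted serine protease that binds hyaluronan, stood at 11.5, 9.92 and 9.44 CPM in the control mice and at 3.23, 7.32 and 3.04 CPM in the deleted mice. The groups did not overlap, H5 being close to the control mice, and it was called lower with a log2 fold change of -1.19 (SE 0.34, adjusted p = 0.022). The call was lost without H1 (log2 fold change -0.99, adjusted p = 0.077), without H9 (-0.97, 0.069) or without C1 (-1.10, 0.054). Over all alternatives the adjusted p of Habp2 ranged from 0.0018 to 0.13. The upper end came from the fit without both C1 and H9, which was chosen after the values were seen. Pla2g2f, a secreted phospholipase A2, stood at 5.54, 3.76 and 4.93 CPM in the control mice and at 4.35, 5.47 and 3.10 CPM in the deleted mice. These groups overlapped throughout, and it was not called, with a log2 fold change of -0.14 (SE 0.28, adjusted p = 0.72), which turned to 0.042 with library totals only and to 0.053 without H9.

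Of 7 transcription factors of the Paneth lineage on the list, 1 was called lower and 0 higher, beside 12.7% and 12.4% of all tested genes, and the median log2 fold change was -0.79, beside -0.0081 over all tested genes. Klf15 stood at 15.7, 4.25 and 19.0 CPM in the control mice and at 2.48, 1.5 and 1.58 CPM in the deleted mice. C3 was the low control mouse, the groups did not overlap, and Klf15 was called lower with a log2 fold change of -2.80 (SE 0.54, adjusted p = 0.0049). Atoh1, required for secretory cells, stood at 17.2, 11.4 and 14.9 CPM in the control mice and at 9.72, 9.13 and 6.05 CPM in the deleted mice, lower in all 3 deleted mice but by less than 2-fold, with -0.81 (SE 0.24, adjusted p = 0.026). Sox9 stood at 14.5, 10.8 and 12.6 CPM and 7.35, 10.1 and 4.60 CPM, with -0.79 (SE 0.28, adjusted p = 0.052). Xbp1, needed for the secretory apparatus, and Spdef overlapped between groups, with log2 fold changes of 0.14 and 0.11. Without H5 there were 2 of these factors called lower, and without both C1 and H9 there were 0.

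Among 8 Wnt receptors and crypt-base targets, 2 were called lower and 0 higher, beside 12.7% and 12.4% of all tested genes, with a median log2 fold change of 0.12. Fzd5, the Frizzled receptor through which Wnt acts on Paneth cell maturation, stood at 188, 148 and 193 CPM in the control mice and at 78.9, 81.6 and 78.2 CPM in the deleted mice, with -1.15 (SE 0.14, adjusted p = 0.00037) and no overlap. Rnf43, an inhibitor of Frizzled receptors, stood at 33.1, 45.7 and 49.2 CPM and 26.3, 15.5 and 20.6 CPM, with -1.03 (SE 0.23, adjusted p = 0.006). The Wnt targets Axin2 and Ephb2 overlapped between groups and had log2 fold changes of 0.18 and 0.38. The count fell to 1 without H5, without C3 or without C3-3, and to 0 with scaling by library totals only.

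Of 8 niche signals and surface markers, 3 were called lower and 1 higher, beside 12.7% and 12.4% of all tested genes, with a median log2 fold change of -1.17. Bst1, a surface enzyme of Paneth cells that makes cyclic ADP-ribose, stood at 443, 385 and 477 CPM in the control mice and at 53.8, 74.1 and 88.9 CPM in the deleted mice. The groups were far apart, with a log2 fold change of -2.59 (SE 0.21, adjusted p = 3.8e-05). Cd24a, a surface glycoprotein used to sort Paneth cells, stood at 68.9, 56.0 and 50.5 CPM and 19.6, 21.1 and 11.3 CPM, with -1.75 (SE 0.24, adjusted p = 0.00065) and no overlap. The Notch ligand Dll1 was lower in all deleted mice by less than 2-fold, with -0.65 (SE 0.21, adjusted p = 0.033). Dll4, another Notch ligand on the list, went the other way and was chosen after its values were seen. It was higher in all deleted mice by less than 2-fold, with 0.80 (SE 0.27, adjusted p = 0.044). The growth factor Tgfa was not called, with 0.38, though all deleted mice lay above all control mice. The third gene called lower was Wnt3, and the gene called higher was Wnt11, both chosen after their values were seen. Wnt3 stood at 2.60, 1.42 and 1.90 CPM and 1.01, 0.289 and 0.488 CPM, and Wnt11 at 0.0302, 0.162 and 0.169 CPM and 1.43, 1.03 and 0.943 CPM. The count called lower was 2 without H5, without H9 or without C1 and 4 without C3, and 0 were called higher when every sample had to hold 10 counts.

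Of 9 genes of the granule, of autophagy and of NOD2 sensing, 1 was called lower and 0 higher, beside 12.7% and 12.4% of all tested genes, with a median log2 fold change of -0.10. That gene was Nod2, a sensor of bacterial muramyl dipeptide, which stood at 8.97, 3.44 and 2.50 CPM in the control mice and at 0.391, 0.500 and 0.910 CPM in the deleted mice. C1 was the highest, no mice overlapped, and the log2 fold change was -3.04 (SE 0.56, adjusted p = 0.0029), or -2.29 without C1 (adjusted p = 0.0034). Slc30a2, a zinc transporter of the granule, stood at 86.2, 102 and 254 CPM and 82.4, 93.9 and 103 CPM and was not called, with -0.67 (SE 0.40, adjusted p = 0.23), or -0.012 without C3-3; its groups overlapped and C3-3 was far above the other mice. The autophagy genes Atg5 and Atg7 differed by less than 2-fold, with log2 fold changes of -0.68 and 0.64, and Ern1, a stress sensor of the endoplasmic reticulum, had 0.05.

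Other antimicrobial genes of the intestine went in both directions. Of 15 listed genes, 11 were tested, 3 were called lower and 3 higher, beside 12.7% and 12.4% of all tested genes, and the median log2 fold change was -1.10. The C-type lectin Reg3g stood at 639, 1278 and 1436 CPM in the control mice and at 6828, 9621 and 6002 CPM in the deleted mice, with 2.74 (SE 0.34, adjusted p = 0.00035). Reg3b stood at 1274, 2471 and 989 CPM and 11538, 11228 and 5853 CPM, with 2.60 (SE 0.41, adjusted p = 0.0014). Both lectins, made by enterocytes and Paneth cells, were higher in every deleted mouse than in every control mouse. Reg1 went the other way, at 880.4, 1751 and 614 CPM in the control mice and 193, 189 and 90.0 CPM in the deleted mice, with -2.78 (SE 0.47, adjusted p = 0.0033). Lypd8, which binds flagellated bacteria, was higher in all deleted mice by less than 2-fold, with 0.72 (SE 0.18, adjusted p = 0.01). The others called, chosen after their values were seen, were Reg4 (-1.68) and the phospholipase Pla2g2a (-4.11), called lower, and lipocalin 2, Lcn2 (4.45, or 3.57 without H5 and 5.18 without C3-3), called higher, each as a log2 fold change.

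**Figure D4:**
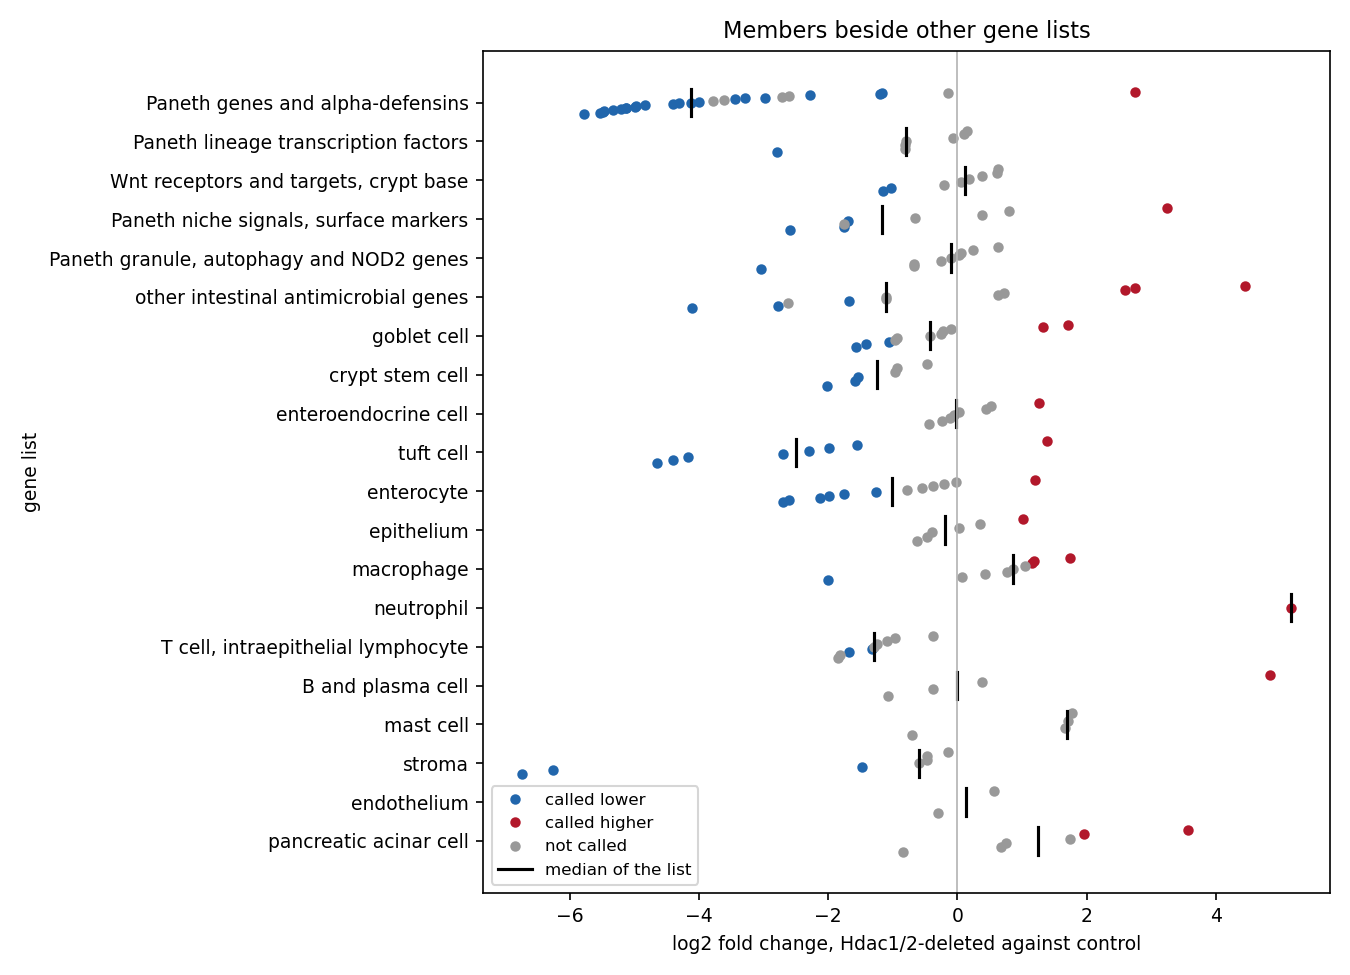
Log2 fold change of deleted against control mice for each tested gene (1 point per gene) in the group and in the other lists, with the median of each list as a vertical bar. The Paneth and defensin genes have a median of -4.12, and Mptx1 is their single gene called higher.

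Markers of the other epithelial lineages were counted alongside, and their part in the results was not tested. Their counts of called genes stand beside 12.7% called lower and 12.4% called higher over all tested genes. Goblet cell markers, which include genes of cells that also make Itln1, summed to 18520.3, 19988 and 21149 CPM in the control mice and 6694, 13837 and 9620.3 CPM in the deleted mice, with Fcgbp the most abundant. Of 11 tested, 3 were called lower and 2 higher, with a median log2 fold change of -0.42, and 5 were called lower without H5. Zg16 was among those called lower, with -1.41 (SE 0.23, adjusted p = 0.0014), whereas Muc2 was not called, with -0.94 (SE 0.41, adjusted p = 0.11). Crypt stem cell markers summed to 483, 364 and 344 CPM and 214, 167 and 105 CPM. Of 6 tested, 3 were called lower and 0 higher, the most abundant being Olfm4 with -1.58 (SE 0.28, adjusted p = 0.0024), and 5 were called lower without C3. Tuft cell markers summed to 22.1, 47.7 and 30.3 CPM and 25.6, 25.8 and 31.7 CPM, with overlapping groups; Trpm5, their most abundant gene, was called higher (1.38), and 7 of 8 were called lower, or 3 when every sample had to hold 10 counts. Without both C1 and H9, 0 tuft cell genes were called higher. Enteroendocrine markers summed to 454, 419.9 and 401 CPM and 443, 624 and 533 CPM, with 0 of 8 called lower and 1 higher. Enterocyte markers summed to 86932, 100802 and 96374 CPM and 46099.7, 34105 and 44832 CPM, with 6 of 12 called lower and 1 higher, or 0 higher without H1, H5, C1 or C3-3 or without both C1 and H9, and Apoa4 the most abundant.

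Markers of cells from outside the epithelium were counted as well. Their counts of called genes too stand beside 12.7% of all tested genes called lower and 12.4% called higher. Macrophage markers summed to 84.2, 67.7 and 72.8 CPM in the control mice and 40.5, 46.8 and 62.7 CPM in the deleted mice, with Cd14 the most abundant. Of 9 tested, 1 was called lower and 3 higher, and the higher count ranged from 1 without H5 or without H9 to 5 without H1 or with scaling by library totals only. T cell and intraepithelial lymphocyte markers summed to 132, 497 and 429.7 CPM and 66.3, 156 and 129.8 CPM, with Gzma the most abundant. Of 9 tested, 2 were called lower and 0 higher. That count was 7 without C1, 1 without H5 and 0 without H1, without C3 or without C3-3, and it was 5 by the DESeq2 Wald test on all mice and 7 without both C1 and H9. Stromal markers summed to 44.8, 42.7 and 14.4 CPM and 9.61, 10.8 and 13.0 CPM, and 3 of 7 were called lower, 2 without H5, without H9 or without C1, 1 without H1 or when every sample had to hold 10 counts, and 0 without both C1 and H9. Des stood at 13.3, 14.1 and 0.658 CPM and 0.0945, 0.211 and 0.0813 CPM, with C3-3 far below C1 and C3. B and plasma cell markers summed to 62.5, 9.31 and 6.25 CPM and 43.7, 50.4 and 61.6 CPM, mast cell markers to 17.3, 35.6 and 29.3 CPM and 19.8, 23.3 and 86.9 CPM, and endothelial markers to 2.23, 1.46 and 1.35 CPM and 1.46, 2.05 and 2.94 CPM. The part of these cells in the results on the Paneth and defensin genes was not tested.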

How the data were processed

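RNA of EDTA-enriched jejunal epithelial cells from 3 control and 3 Hdac1/2-deleted mice was used. The authors deposited counts of reads per gene, which were tested, and a score, made by rescaling each sample's counts and rounding, which was not used. Their log2 fold changes, log CPM and p-values were not used either. Their processing notes name bcl2fastq 1.8.4, STAR 2.4.0f1 and mm9, whereas the paper's methods name GRCm38; the counting program and annotation are not given in the sources used here. Genes were matched by identifier to GENCODE M21, which is on GRCm38.

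Counts were filtered with filterByExpr, normalized with TMM (factors 0.892 to 1.14) and fitted with the robust quasi-likelihood model of edgeR 4.0.16 (limma 3.58.1, R 4.3.3), without covariates, with Benjamini-Hochberg adjustment over the tested genes. DESeq2 1.42.0 served as an alternative. Tables and plots used Python 3.11.15, pandas 2.3.3, scipy 1.17.1 and matplotlib 3.10.9. The edgeR fit was tested on simulated counts, with the same spread setting for every gene and changes only in well-counted genes. That test does not cover genes near the floor or with a wide spread between mice.

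The members and lists were chosen with earlier results of these data known. Every member is named except 1, which is in the counts and sums and is otherwise not reported here. Each other list gives at most 4 genes, those of highest mean level over the 6 samples, with Klf15, Atoh1, Sox9, Nod2, Lyz2, Mmp7, Reg3g, Hdac1 and Hdac2 added. Other genes are marked. No test was made of a list or a sum. Alternatives changed the scaling, test, filter, prior count, fold limit and adjusted p limit, and left out each mouse. A further fit left out C1 and H9 together, a choice made after the values were seen. The ranges given over all alternatives include it.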

Additional observations from a re-analysis of the deposited data

How the results depend on the processing

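Leaving out 1 mouse at a time gave 17 to 22 of the 30 genes called lower, and 1 called higher throughout. Over all tested genes, 1790 to 2012 (11.1 to 12.5%) were then called lower and 1841 to 2109 higher. The DESeq2 Wald test also called 21 of the 30 lower, and 12.8% of all tested genes. Of the 30, 15 were called lower when every sample had to hold 10 or more counts (17 tested), 24 without a filter, 20 with library totals only and 16 at an adjusted p of at most 0.01. The shares of all tested genes called lower were 11.8, 10.8, 9.85 and 9.58% in that order. The groups did not overlap for 22 to 27 genes when 1 mouse was left out, 27 being the value without C1. Over all tested genes, the deleted mice then lay below for 28.8 to 31.0% and above for 29.2 to 32.1%, the values without C1 being 31.0 and 32.1%. The number of the 30 genes without overlap was 16, 24 and 21 with the count minimum, without a filter and with library totals only, where the deleted mice lay below for 26.5, 23.4 and 19.7% of all tested genes and above for 26.8, 23.6 and 32.8%. Without a fold limit, 3168 of all tested genes were called lower and 3198 higher, because the fold limit alone was removed.

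Scaling by library totals only moved the median log2 fold change of all genes by 0.188, from -0.0081 to 0.18, and gave 1538 genes called lower and 2463 higher. Pla2g2f, not called in any setting, changed sign: its log2 fold change was 0.042 with library totals only, between -0.34 (without H5) and 0.053 (without H9) with 1 mouse left out, and 0.18 without C1 and H9, a choice made after the values were seen; the cause was not tested. The ratio of group means of the summed level was 12.1 for the 30 genes and 24.8 for the 16 Defa genes with library totals only, against 13.7 and 28.1. No paired analysis was possible, since the groups share no replicate names. Depth limits Defa23, Defa-rs7, Defa-ps1, Defa-ps18 and Gm15299, which had 1 to 3 counts in the deleted mice.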

Other observations

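Some single genes of the marker lists, chosen after their values were seen, stood apart between the groups. Ltf, lactoferrin, an iron-binding antimicrobial protein listed as a neutrophil marker, stood at 1.25, 1.48 and 1.52 CPM in the control mice C1, C3 and C3-3 and at 30.3, 65.5 and 56.9 CPM in the deleted mice H1, H5 and H9. The other 5 genes of that list were not found among the genes counted. Ltf was called higher, with a log2 fold change of 5.17 (adjusted p = 1.2e-05). Cd79b, listed as a B cell marker, stood at 0.709, 1.55 and 1.19 CPM and 27.2, 40.7 and 30.3 CPM and was called higher, with 4.84 (adjusted p = 1.4e-05), whereas Cd79a was not called, with -1.07 (adjusted p = 0.16). Of the tuft cell genes, Dclk1 stood at 4.33, 7.78 and 4.03 CPM and 0.337, 0.211 and 0.195 CPM and was called lower, with -4.40 (adjusted p = 8e-05). Jchain, of plasma cells, stood at 59.6, 5.42 and 4.31 CPM and 14.9, 9.05 and 29.3 CPM, with C1 the highest of all mice, and was not called, with -0.38 (adjusted p = 0.83), but was called higher without C1, with 1.87 (adjusted p = 0.023).

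The low values of C1 at several defensin genes were compared with all 15618 tested genes, also after the values were seen. C1 was at least 5-fold below both other control mice, themselves at 1 CPM or more, for 30 genes (0.192%), of which 5 were Defa20, Defa21, Defa22, Defa26 and Gm14851 of the cluster. H9 was also at least 5-fold below both other deleted mice for 4 genes, and these were Defa20, Defa21, Defa22 and Defa26. The pattern was set with these genes in view, so the search cannot show that it is particular to them. No least level was asked of the deleted mice, where Defa20 had 21, 7 and 0 counts and Defa26 13, 9 and 0 in H1, H5 and H9. Because Defa21 and Defa22 share transcript windows, the 4 genes are not independent observations. C1, itself at 1 CPM or more, was at least 2-fold above both other control mice for 158 genes (1.01%), Gm15299 among them.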
